A study of Rattus norvegicus with 8 samples.

Results

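miR-210 is the microRNA (miRNA) best known for its response to low oxygen, and both mature strands cut from its hairpin, rno-miR-210-3p and rno-miR-210-5p, were followed in rat bone marrow mesenchymal stem cells (BMSCs), adherent stromal cells able to become osteoblasts, chondrocytes or adipocytes. The members were taken by name, 2 of the 487 mature miRNAs in the deposited table. The study sequenced miRNAs from 4 control samples and from 4 samples given 10 µM dexamethasone, a synthetic glucocorticoid, for 48 h. The labels used here give the organism as Rattus norvegicus and name neither a rat strain or age, nor the passage, a vehicle or the time in culture of the controls, nor the oxygen level. Whether the samples were separate cultures is not given either, so p-values measure only the spread between these samples, which may be technical.

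In low oxygen the transcription factor HIF-1α (hypoxia-inducible factor) raises transcription of the miR-210 locus, and this induction is shared by many mammalian cell types. The 3p arm is the guide strand that enters Argonaute, and its known targets in human cells include the iron-sulfur cluster scaffold ISCU, through which it lowers mitochondrial respiration, and the ephrin EFNA3. In mouse marrow stromal cells miR-210 is known to promote osteoblast differentiation by repressing the activin receptor ACVR1B. The 5p arm is the opposite strand of the duplex, usually the less abundant one.

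The sequences show which molecules were counted and how the arms differ. They were taken from RefSeq on the rat assembly GRCr8, which is a later build than mRatBN7.2, the one the submitters' processing notes name, and both members matched an entry by name. Capitals mark the seed, bases 2 to 8 from the 5′ end, which pairs with target transcripts.
rno-miR-210-3p: cUGUGCGUgugacagcggcuga
rno-miR-210-5p: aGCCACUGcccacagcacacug
The 3p arm lies at chr1:205755946-205755967 and the 5p arm at chr1:205755984-205756005, both on the minus strand. Each arm is 22 bases long with 63.6% G and C. The arms have different seeds and are therefore no seed family. Among the 692 other mature rat names in the RefSeq table, 0 shared bases 2 to 8 with either arm. rno-miR-147 shared bases 2 to 7 with the 3p arm and had 17 counts over all 8 samples. The nearest other mature sequence was 9 edits from the 3p arm and 8 edits from the 5p arm, so neither arm has a near-identical relative from another locus in that table with which reads could be shared.

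The hairpin is 110 bases long, and it is shown to place the arms, in capitals, on either side of the loop. The 5p arm comes first, at bases 28 to 49, and the 3p arm follows at bases 66 to 87, with 16 bases between them.
Mir210 hairpin: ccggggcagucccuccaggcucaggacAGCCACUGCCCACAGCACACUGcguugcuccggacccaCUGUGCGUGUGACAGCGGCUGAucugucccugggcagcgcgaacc
In the structure of lowest free energy predicted by RNAfold, at -46.5 kcal per mol, 16 base pairs joined the arms. The hairpin lies at chr1:205755923-205756032 on the minus strand, between the protein-coding genes Rassf7 and Phrf1. The lncRNA gene LOC102553043 overlaps it on the same strand. A second annotated miRNA, Mir3574, lies over the hairpin on the plus strand. Its mature sequence has the same coordinates as the 3p arm and is its exact reverse complement over all 22 bases.
rno-miR-3574: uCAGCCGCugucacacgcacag
miR-3574 was not among the miRNAs tested below, and its counts were not analysed here. The sources used here do not say whether the libraries kept strand or how reads were assigned, and without strand, reads from miR-3574 and miR-210-3p could not be told apart. The 5p arm has no annotated mature partner on the other strand.

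Both arms were lower after dexamethasone, the 5p arm by 45.2% and the 3p arm by 19.1% in the fitted values, and the evidence was firmer for the 5p arm. Levels are counts scaled to a common library total (CPM). Total counts ran from 1835256 to 2639007 in control samples and from 1377881 to 1521505 in dexamethasone samples, so every treated library was the shallower. Depth and treatment thus cannot be told apart in these samples, and fits thinned to equal totals are given below. A count of 0 would have allowed up to 3 counts, or 1.14 to 2.18 CPM, and both arms lay above that in every sample. Such limits and the intervals on shares cover counting error only. In bulk samples a smaller number of expressing cells and less RNA per cell cannot be told apart.

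rno-miR-210-3p had 177, 160, 186 and 194 CPM in control replicates 1 to 4, from 467, 376, 342 and 431 counts. It had 143, 143, 167 and 115 CPM in dexamethasone replicates 1 to 4, from 207, 217, 238 and 159 counts. Dexamethasone replicate 4 was the lowest of all samples and dexamethasone replicate 3 lay above control replicate 2, so the groups overlapped. The control mean was 179 ± 14.5 CPM and the dexamethasone mean 142 ± 21.3 CPM (SD, n = 4 each). The log2 fold change was -0.31 ± 0.11 (SE, 95% interval -0.55 to -0.057), just past the threshold of 0.05 (edgeR quasi-likelihood test, Benjamini-Hochberg adjusted p = 0.0444 over 245 tested miRNAs). An exact two-sided permutation test on the CPM of this arm alone gave p = 0.0571, where the smallest that 70 assignments allow is 0.0286. The call was lost without any of 6 of the 8 samples (edgeR adjusted p = 0.0527 to 0.115), namely control replicates 1, 3 and 4 and dexamethasone replicates 1, 2 and 4, and the log2 fold change was -0.19 without dexamethasone replicate 4.

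rno-miR-210-5p had 15.2, 19.2, 20.2 and 22.5 CPM in control replicates 1 to 4, from 40, 45, 37 and 50 counts. It had 13.1, 7.23, 9.15 and 11.6 CPM in dexamethasone replicates 1 to 4, from 19, 11, 13 and 16 counts. All 4 treated samples lay below all 4 controls, the closest being dexamethasone replicate 1 and control replicate 1. The mean went from 19.2 ± 3.05 to 10.3 ± 2.61 CPM (SD, n = 4 each). The log2 fold change was -0.87 ± 0.24 (SE, 95% interval -1.39 to -0.35, edgeR adjusted p = 0.00983). The exact two-sided permutation p on this arm alone was 0.0286, the smallest possible. It follows from the lack of overlap and adds nothing to it. The 5p arm passed without any 1 of the samples (edgeR adjusted p = 0.0056 to 0.0322).

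**Figure D1:**
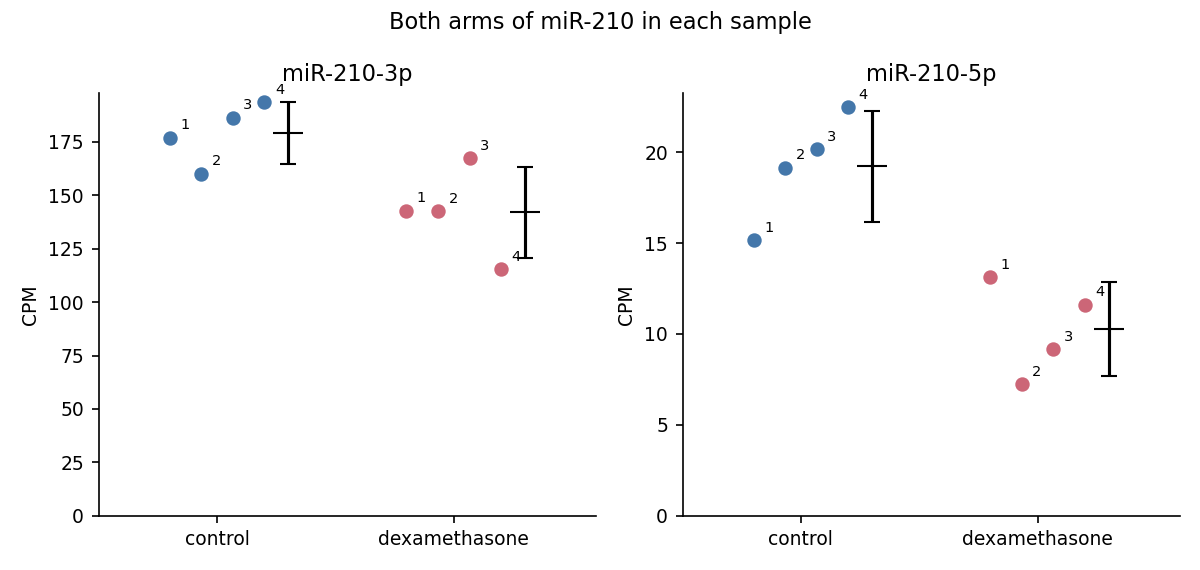
CPM of miR-210-3p (left) and miR-210-5p (right) in each control and dexamethasone sample. Points are samples numbered by replicate, the bars beside them are the mean and SD (n = 4), and both axes start at 0. The 3p groups overlap, since dexamethasone replicate 3 at 167 CPM is above control replicate 2 at 160 CPM, and the 5p groups do not.

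These calls stand against a treatment that moved many miRNAs. Of 245 tested, 46.1% passed in either direction and 21.2% were lower, while the groups did not overlap in 42%, with the treated samples lower in 20.4%. Being called lower was thus common. The 5p arm had the 15th lowest log2 fold change and the 3p arm the 52nd lowest of the 245. In the authors' deposited table both arms were also lower, with log2 fold changes of -0.33 for the 3p arm and -0.84 for the 5p arm and adjusted p of 0.0262 and 0.00928, from a test that the sources used here do not name.

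The spread among replicates of the 5p arm was about what counting alone gives. The coefficient of variation of CPM was 15.9% in control and 25.4% in dexamethasone samples, against 15.2% and 26.0% from the square root of the mean counts of 43.0 and 14.8. For the 3p arm it was 8.09% in control and 15.0% in dexamethasone samples, against 4.98% and 6.98% from counting. Counting error is so large for the 5p arm that extra spread of the size seen in the 3p arm could be hidden in it, and the dispersion fitted in edgeR, as a coefficient of variation, was 10.3% for the 3p arm and 12.4% for the 5p arm. With every library thinned to 1377881 counts the log2 fold change was -0.78 for the 5p arm (edgeR adjusted p = 0.0158) and -0.32 for the 3p arm (edgeR adjusted p = 0.068).

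**Figure D2:**
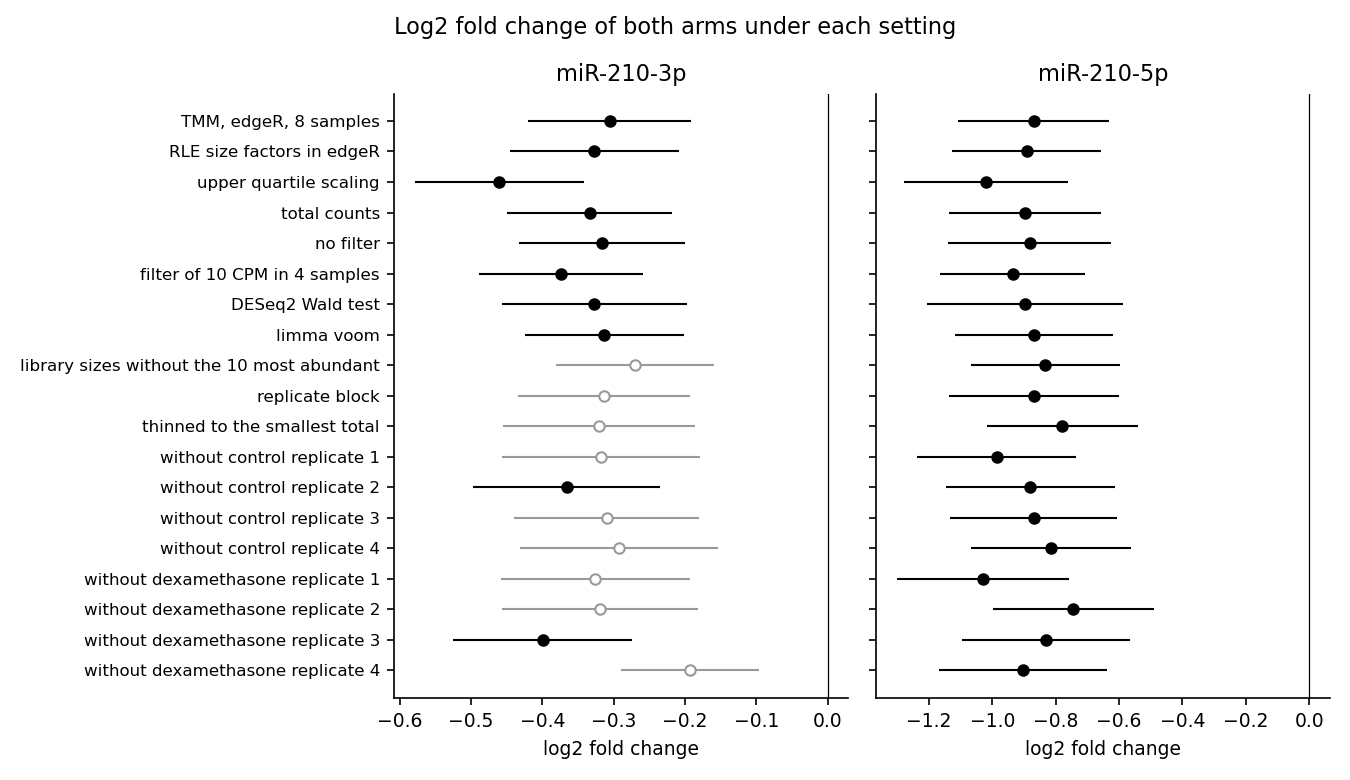
Log2 fold change of each arm, dexamethasone against control, under each setting of scaling, filter, test and left-out sample, with bars of 1 SE. Filled points passed an adjusted p of 0.05 and open points did not. All values are below 0, every 5p point is filled and 9 of the 3p points are open.

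The 3p arm made up most of the miR-210 counts in every sample. Its share of both arms was 92.1%, 89.3%, 90.2% and 89.6% in control replicates 1 to 4, with exact (Clopper-Pearson) 95% intervals between 86.0% and 94.3%. The share was 91.6%, 95.2%, 94.8% and 90.9% in dexamethasone replicates 1 to 4, with exact 95% intervals between 85.6% and 97.6%. Dexamethasone replicates 2 and 3 were above all controls, while replicates 1 and 4 lay within the control range. The log2 ratio of 3p to 5p CPM averaged 3.19 ± 0.21 over controls and 3.74 ± 0.49 over treated samples (SD, n = 4 each), a difference of 0.55 ± 0.25 (SE, 95% interval -0.011 to 1.10). It did not pass in limma over the 53 hairpins with both arms tested (adjusted p = 0.203), and the exact two-sided permutation p for this hairpin alone was 0.114. The larger fall of the 5p arm was thus not shown to differ from that of the 3p arm, nor shown to be equal to it.

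Among these hairpins 1.89% passed, which is 1 hairpin, miR-148a, whose log2 ratio of 3p to 5p rose by 1.50 ± 0.18 (SE, limma adjusted p = 0.00106). miR-210 had the 9th largest change in size, next to miR-22 at 0.58 ± 0.14 and miR-532 at -0.53 ± 0.23 (change in log2 ratio, SE, limma adjusted p = 0.0694 and 0.198). In control samples it ranked 13th of 53 for predominance of the 3p arm.

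**Figure D3:**
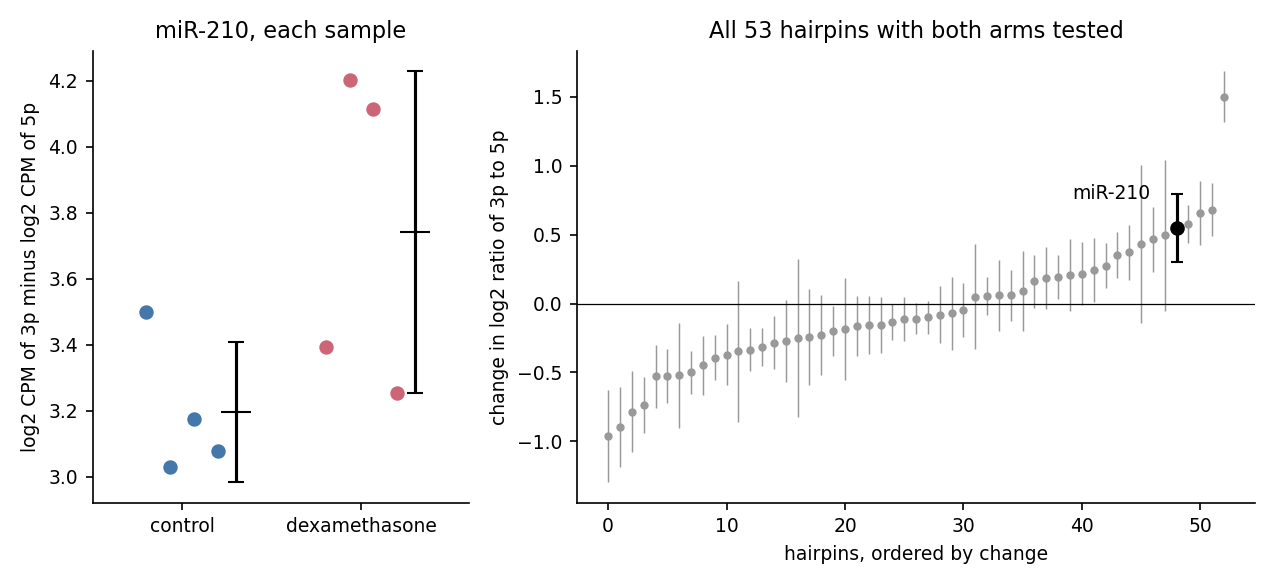
Left, log2 ratio of 3p to 5p CPM of miR-210 in each sample, with mean and SD (n = 4). Right, change of that ratio with dexamethasone in the 53 hairpins with both arms tested, ordered by size, with bars of 1 SE; miR-210, in black, is at 0.55 and the highest point is miR-148a at 1.50.

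By abundance the 3p arm lay in the upper part of the listed miRNAs and the 5p arm nearer the middle. The 3p arm ranked 81st to 90th of the 487 listed miRNAs in control samples and 93rd to 102nd in dexamethasone samples. The 5p arm ranked 172nd to 187th in control and 192nd to 222nd in dexamethasone samples. Ranks are of counts, since library preparation captures some miRNAs better than others. By mean CPM over all 8 samples the neighbours of the 3p arm were miR-298-5p and miR-132-5p just above and miR-206-3p and miR-21-3p just below. miR-298-5p averaged 178 ± 18.4 CPM over controls and 151 ± 13.4 CPM over treated samples (SD, n = 4), within 1 SD of the 3p arm in each group. miR-21-3p had 148 ± 17.9 CPM in control, below the 3p arm by more than the SD of either, and 153 ± 10.9 CPM in treated samples, within the SD of the 3p arm. The other neighbours were close to the 3p arm only in the mean over all samples: miR-132-5p, from a CREB-responsive transcript, went from 241 ± 19.6 to 82.9 ± 12.4 CPM, and the skeletal muscle miRNA miR-206-3p went from 80.0 ± 15.3 to 235 ± 39.4 CPM (SD, n = 4).

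The miRNAs whose pattern was most like that of the 3p arm were found by the root mean square difference, over the 8 samples, between log2 CPM deviations from the control mean. The 5 closest were miR-350 (0.12), miR-143-3p (0.14), miR-126a-5p (0.15), miR-7a-5p (0.15) and miR-149-5p (0.15, all in log2 units). Of these, miR-143-3p, abundant in smooth muscle and other mesenchymal cells, went from 28820 ± 605 CPM to 22893 ± 2075 CPM (SD, n = 4), a log2 fold change of -0.30 with SE 0.07 (adjusted p = 0.00525 in edgeR). The endothelial miRNA miR-126a-5p went from 153 ± 5.96 CPM to 113 ± 16.5 CPM (SD, n = 4), a log2 fold change of -0.41 with SE 0.12 (adjusted p = 0.0119 in edgeR). miR-149-5p was lower by a log2 fold change of -0.25 with SE 0.08 (adjusted p = 0.0215 in edgeR). Its call was lost without control replicate 1 or 4, and likewise without dexamethasone replicate 1 or 4 (adjusted p = 0.0541 to 0.0972 in edgeR). It was also lost with no filter, with the replicate block and with thinning (adjusted p = 0.0516 to 0.0593 in edgeR). miR-350 and miR-7a-5p did not pass, at log2 fold changes of -0.30 and -0.18 with SE 0.17 and 0.10 (adjusted p = 0.162 and 0.151 in edgeR), though miR-7a-5p did without dexamethasone replicate 1 (adjusted p = 0.0468 in edgeR). The other arm of the same hairpin, miR-210-5p, was far down this order, 143rd of 244 at 0.48 log2 units. Its distance also holds counting error, 26.0% as a coefficient of variation in dexamethasone samples. The rank therefore does not show that the arms differ. The measure takes in the difference between the groups as well as that between replicates. The 5 closest were therefore bound to fall about as far as the 3p arm. Their direction is no separate result, and 21.2% of all tested miRNAs were called lower.

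**Figure D4:**
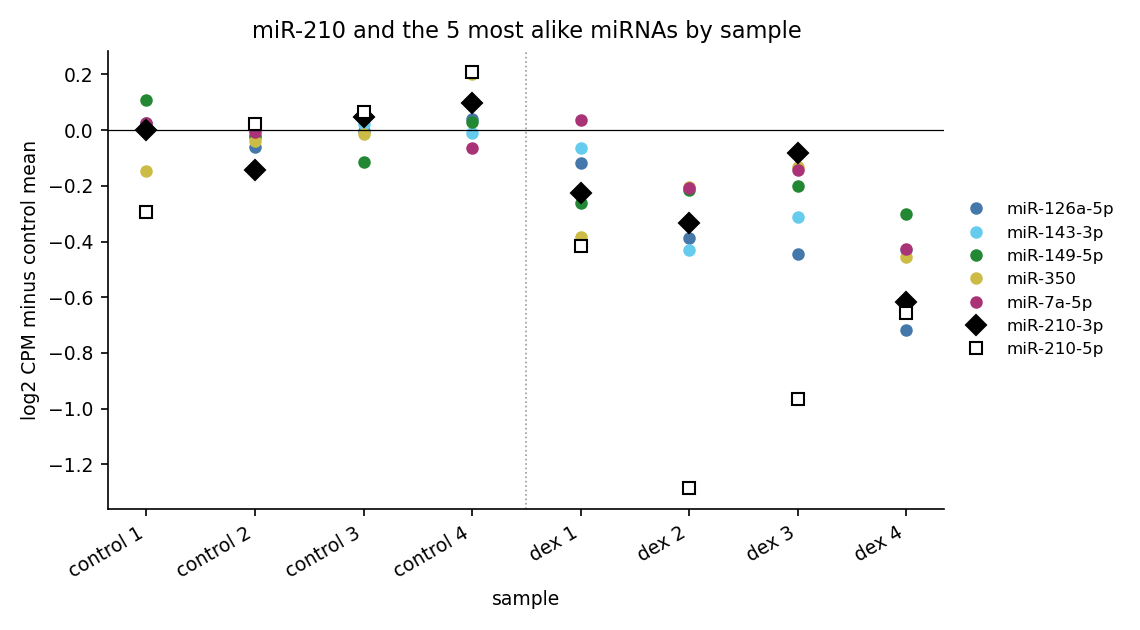
Log2 CPM minus the control mean in each sample, for both arms of miR-210 and the 5 miRNAs most like the 3p arm; the dotted line parts control from dexamethasone (dex) samples. The 5p arm lies below the 3p arm in all 4 treated samples.

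Other miRNAs linked to low oxygen were set beside miR-210. The first list held 13 miRNAs known to rise under hypoxia in human cancer cell lines, and 12 were tested. Of these 4 were higher and 0 lower, where 24.9% of all tested miRNAs were higher and 21.2% lower, and 8 did not pass. With RLE size factors 4 were higher and 1 (miR-24-3p) lower, and with upper quartile scaling 2 were higher and 2 (miR-24-3p and miR-27b-3p) lower. With the filter of 10 CPM in 4 samples 4 were higher and the same 2 lower, and without dexamethasone replicate 4 there were 5 higher and 1 (miR-24-3p) lower. Of all 245 tested miRNAs 55 were higher and 55 lower with RLE size factors, and 41 and 71 with upper quartile scaling. With the filter of 10 CPM 49 were higher and 59 lower of 214 tested. Without dexamethasone replicate 4 the numbers were 70 and 60 of 254. The median log2 fold change of the 12 was 0.21, against 0.0049 for all tested miRNAs. miR-21-5p, which is induced in fibrosis and in many tumours, rose by a log2 fold change of 0.58 with SE 0.06 (adjusted p = 1.29e-05 in edgeR). miR-26a-5p rose from a mean of 7916 CPM to 10326 CPM, by 0.41 with SE 0.07 on the log2 scale (adjusted p = 3.67e-04 in edgeR). miR-103-3p and miR-23b-3p rose by 0.30 and 0.29 with SE 0.06 and 0.08 on the log2 scale (adjusted p = 0.00194 and 0.0113 in edgeR). Neither passed with upper quartile scaling, and miR-23b-3p did not pass without control replicate 1 or 2 (adjusted p = 0.0538 and 0.0609 in edgeR). miR-27b-3p, among the 3 most abundant of the list, was at a log2 fold change of -0.11 with SE 0.05 (adjusted p = 0.0758 in edgeR). Without dexamethasone replicate 1 the count was 8 higher and 0 lower of 13 tested. The additions were miR-181a-5p, miR-181c-5p, miR-23a-3p and miR-26b-5p. In that fit 65 of all 255 tested miRNAs were higher and 54 lower. miR-181c-5p, at a mean of 2.45 CPM in control and 7.41 CPM in dexamethasone samples, failed the filter with all 8 samples. Leaving out a dexamethasone sample let it in, and it is 1 of the 5 higher without dexamethasone replicate 4.

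The second list held miRNAs known to target HIF-1α or its regulators, 8 of 9 listed in the table and 6 tested. Of these 3 were higher and 0 lower, again beside 24.9% higher and 21.2% lower of all tested, and the median log2 fold change was 0.19. With upper quartile scaling only miR-199a-5p passed, where 41 of all 245 miRNAs were higher and 71 lower. Without dexamethasone replicate 4, miR-18a-5p was lower, at a log2 fold change of -0.43 (adjusted p = 0.0191 in edgeR). miR-199a-5p, known to repress HIF-1α in rat heart muscle cells, had a log2 fold change of 0.32 with SE 0.05 (adjusted p = 1.51e-04 in edgeR). miR-155-5p, known to target HIF-1α in human cells, was at 0.30 with SE 0.07 on the log2 scale (adjusted p = 0.00426 in edgeR). miR-322-5p is the rodent counterpart of human miR-424, which stabilises HIF-1α by repressing the ubiquitin ligase scaffold CUL2. It was at 0.27 with SE 0.07 on the log2 scale (adjusted p = 0.00803 in edgeR, and 0.0535 without control replicate 1). The members of both lists that passed lay on the opposite side of 0 from both arms of miR-210 with TMM scaling and all 8 samples. Those that did not pass lay on both sides of 0. Their log2 fold changes ran from -0.12 to 0.36 in the first list and from -0.25 to 0.098 in the second. Differences between the listed miRNAs and miR-210 were not tested.

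**Figure D5:**
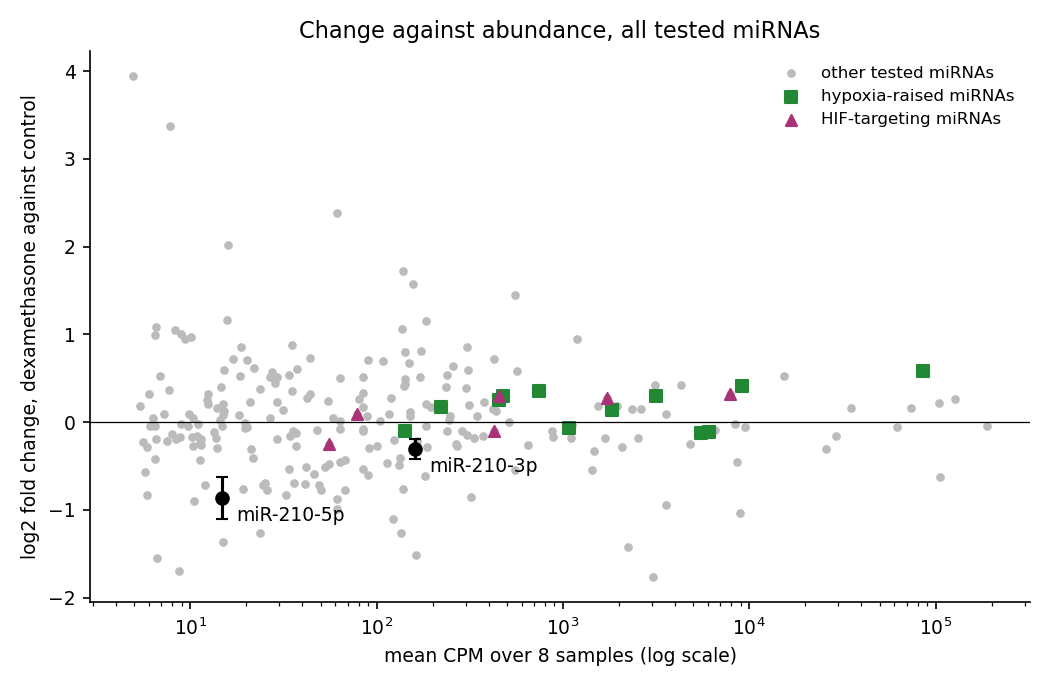
Log2 fold change, dexamethasone against control, plotted against mean CPM on a log axis for the 245 tested miRNAs. Both arms of miR-210 (black, bars of 1 SE) lie below 0, and the members of the hypoxia-raised (squares) and HIF-targeting (triangles) lists that passed with TMM scaling lie above 0, while 2 squares were lower with upper quartile scaling. Members of both lists that did not pass lie on both sides of 0.

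Markers of the labelled and other cell types were read in the same libraries. The 6 mesenchymal miRNAs summed to 131540 to 137175 CPM in control and 141462 to 144290 CPM in dexamethasone samples, led by miR-199a-3p. Among these 6, miR-199a-3p and miR-199a-5p were higher, miR-143-3p was lower and 3 did not pass, and the median log2 fold change was -0.10. Of all tested miRNAs 24.9% were higher and 21.2% lower, so these few calls do not set the mesenchymal miRNAs apart. Of the erythroid miRNAs, in whose lineage miR-210 is also known to be expressed, 3 of 4 were listed and summed to at most 2.72 CPM in any sample, led by miR-486 with 14 counts in all. The 2 endothelial miRNAs, miR-126a-3p and miR-126a-5p, are arms of the same hairpin and were both lower, as were 21.2% of all tested miRNAs. Their sum was 1790 to 2000 CPM in control and 1163 to 1331 CPM in dexamethasone samples. The 6 muscle miRNAs summed to 81.4 to 111 CPM in control and 244 to 344 CPM in dexamethasone samples. Most of that sum was miR-206-3p, at a mean of 80.0 CPM in control and 235 CPM in dexamethasone samples. All 3 muscle miRNAs tested were higher, as were 24.9% of all tested miRNAs. The others failed the filter, and miR-133b-3p did not rise (mean 0.21 and 0.18 CPM). The 4 haematopoietic miRNAs summed to 36.4 to 46.8 CPM in control and 50.4 to 67.5 CPM in dexamethasone samples. Of the 2 haematopoietic miRNAs tested, miR-142-3p was higher, at a log2 fold change of 0.54 (adjusted p = 0.00479 in edgeR). The other, at -0.022, did not pass. The part of any of these lists in the fall of miR-210 was not tested. The epithelial miRNAs summed to at most 6.81 CPM, and the 4 listed neural miRNAs to 453 to 503 CPM in control and 444 to 527 CPM in dexamethasone samples, led by miR-128-3p. Log2 fold changes of the tested neural members lay on both sides of 0. Of the 3 tested, 1 was lower, at a log2 fold change of -0.54 (adjusted p = 0.00300 in edgeR). The 2 that did not pass, miR-128-3p among them, were both at 0.23.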

How the data were processed

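miRNA libraries of 4 control and 4 dexamethasone samples were used, grouped by their titles. Per the labels' protocols, RNA came from a Qiagen miRNA kit and libraries from a VAHTS total RNA kit. The submitters' processing notes name Bowtie 1.0 and mRatBN7.2; the sources used here name neither the counter nor a strand setting. The authors deposited whole-number counts per mature miRNA, CPM per sample and group, a log2 fold change and p-values; recomputed CPM equalled the deposited CPM to within 4.98e-05.

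The quasi-likelihood test of edgeR 4.0.16 (R 4.3.3) was run on the deposited counts with TMM scaling. filterByExpr kept 245 miRNAs, both arms of miR-210 among them, and Benjamini-Hochberg adjustment was over these, with a threshold of 0.05. Standard errors are the log2 fold change divided by the square root of F. Arm ratios used limma 3.58.1 on log2 CPM (prior count 1), likeness log2 CPM with prior count 2, structure ViennaRNA 2.7.2, and intervals scipy 1.17.1. Libraries within a group differed by more than sampling noise (chi-square per degree of freedom 7.56 to 48.6). The fits were tested on simulated data. Alternatives were other scalings and filters, DESeq2 1.42.0, limma voom, thinning, a replicate block and leaving out each sample.

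The members, lists and tests were chosen with earlier results of these data known. The miRNAs named were both arms, the 2 neighbours on each side in abundance, the 5 most alike, the called and the 3 most abundant members of each hypoxia list, leading markers and neighbouring hairpins. miR-147, miR-3574, miR-148a, miR-24-3p, miR-18a-5p, miR-181a-5p, miR-181c-5p, miR-23a-3p and miR-26b-5p were named after their values or entries were seen.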

Additional observations from a re-analysis of the deposited data

Results flagged for a closer look

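No value of either arm of miR-210 stood apart within its group of 4. Of 50 groups examined (each named miRNA, the 3p share and the total counts in each condition), 2 had 1 sample far from the other 3, where chance gives about 1 in 20. The lowest control sample for miR-199a-5p was at 6640 CPM, with the next at 7175 CPM. The lowest control sample for miR-21-5p was at 63622 CPM, with the next at 70225 CPM.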

How the results depend on the processing

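miR-210-5p was lower and past the threshold in all 10 alternative settings and all 8 fits that left out 1 sample (log2 fold change -1.03 to -0.74). miR-210-3p was below 0 in all of these but missed the threshold with library sizes without the 10 most abundant miRNAs (-0.27, edgeR adjusted p = 0.0613), with the replicate block (-0.31, 0.0644) and with thinning to the smallest total (-0.32, 0.068), as well as in 6 of the 8 fits that left out 1 sample (adjusted p = 0.0527 to 0.115 in edgeR; the log2 fold change over all 8 of these fits was -0.40 to -0.19); the cause was not tested. An exact permutation test on CPM, added after seeing the data, gave a log2 ratio of means of -0.34 for the 3p arm and p = 0.0571. The arm ratio did not pass under any alternative (0.39 to 0.71, limma adjusted p = 0.100 to 0.413).

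Same-numbered samples did not deviate together (correlations of -0.032, -0.10, 0.076 and -0.21 for replicate numbers 1 to 4, and 1 of 8 samples correlated best with its own number), so the numbers were not taken as pairs. Of all 245 tested miRNAs 61 were higher and 52 lower; across the alternatives 97 to 130 passed. Upper quartile scaling put the median of all tested miRNAs at -0.15 (log2) and gave 41 higher and 71 lower, and 1 HIF-targeting miRNA passed in place of 3. The hypoxia-raised list had 3 to 8 calls when 1 sample was left out and the HIF-targeting list 2 to 4. The former include miR-181c-5p, which failed the filter with all 8 samples, whenever a dexamethasone sample was left out. miR-21-3p, which did not pass, changed sign with upper quartile scaling (-0.080) and without control replicate 1 (-0.018, in a range of -0.018 to 0.12 over the samples left out). Treated samples held 11 to 19 counts of the 5p arm, which limits the precision of its level.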
